A study of Mus musculus with 9 samples.

Results

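The narrow promoters open in every sample were 4260 regions of 68078 merged autosomal open chromatin regions (6.26%). They were selected on measured values: the peaks of all 9 lists were merged at 100 bp, and a region was kept if each list had a peak in it, if it was under 2000 bp wide, and if it reached the promoter window of a protein-coding transcription start site (TSS) in the mm9 genome, set at 1000 bp upstream and 100 bp downstream. Presence and width are therefore given as a description, with no test. The regions overlapped promoters of 4803 of 21397 autosomal protein-coding genes (22.4%).

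Open chromatin was mapped by ATAC-seq, in which the Tn5 transposase inserts sequencing adapters into exposed DNA, in cells sorted from the cochlear duct of mouse embryos heterozygous for an EGFP knocked into the Sox2 coding region (Sox2-EGFP). Sox2 is a transcription factor of the prosensory cells that give rise to hair cells and supporting cells. The brightest cells (Sox2-EGFPhigh+ in the sort, written Sox2-EGFP+ here) were taken at E12, E14.5 and E16 with 2 samples each, and the dimmest cells (Sox2-EGFP-) at E14.5 with 1 sample and at E16 with 2 samples. No E12 Sox2-EGFP- sample was analysed here. Each Sox2-EGFP+ sample was a pool of 6 to 12 cochlear ducts from 1 litter, and all groups carried the knock-in allele. Groups follow the sample titles, since the cell type tag of 3 of the 4 E16 samples named the other cell type.

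Most promoters of widely used genes lie in CpG islands, stretches rich in unmethylated CpG that keep DNA free of a closed nucleosome array. Such promoters usually lack a TATA box and carry sites for factors present in nearly all cells. Among these are NFY, a factor with histone-like folds that binds the CCAAT box, SP family factors on the GC box, ETS family factors, NRF1 (a regulator of genes for mitochondria), YY1, CREB on the cyclic AMP response element (CRE), and Ronin. Distal enhancers, by contrast, are mostly used in a few cell types.

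The 150 bp upstream of the TSS are shown for 9 narrow promoters, each a highly ranked one (order 1 to 263 of 4260) that held the named motif there and no annotated UTR, so that the motifs can be seen in place. Rank means the order of the peaks by -log10 p, averaged over the 9 samples. Each sequence is read 5′ to 3′ along the gene from mm9, and capitals mark the match to the named motif.
Ggct (NFY, chr6:54942945-54943094, minus strand): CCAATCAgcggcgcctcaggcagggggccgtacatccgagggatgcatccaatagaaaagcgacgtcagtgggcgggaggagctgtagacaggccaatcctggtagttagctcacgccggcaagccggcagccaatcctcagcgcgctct
Hmgb2 (GC box, chr8:59990490-59990639, plus strand): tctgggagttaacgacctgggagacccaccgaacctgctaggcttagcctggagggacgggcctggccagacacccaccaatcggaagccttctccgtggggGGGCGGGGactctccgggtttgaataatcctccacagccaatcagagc
Edem3 (ETS, chr1:153602354-153602503, plus strand): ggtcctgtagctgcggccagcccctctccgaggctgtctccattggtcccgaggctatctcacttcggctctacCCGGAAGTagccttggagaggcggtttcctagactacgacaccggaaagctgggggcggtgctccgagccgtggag
Etfdh (NRF1, chr3:79432786-79432935, minus strand): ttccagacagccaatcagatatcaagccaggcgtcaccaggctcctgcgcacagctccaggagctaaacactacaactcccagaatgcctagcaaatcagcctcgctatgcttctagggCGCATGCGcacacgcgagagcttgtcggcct
Cnot3 (YY1, chr7:3596804-3596953, plus strand): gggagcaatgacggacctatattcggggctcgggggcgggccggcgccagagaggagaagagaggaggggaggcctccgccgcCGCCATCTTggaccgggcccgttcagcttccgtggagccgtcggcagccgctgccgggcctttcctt
Ift57 (CRE, chr16:49699196-49699345, plus strand): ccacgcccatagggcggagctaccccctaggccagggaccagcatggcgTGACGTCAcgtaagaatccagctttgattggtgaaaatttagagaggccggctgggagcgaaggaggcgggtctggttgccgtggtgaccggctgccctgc
Zfc3h1 (Kaiso-type, chr10:114821865-114822014, plus strand): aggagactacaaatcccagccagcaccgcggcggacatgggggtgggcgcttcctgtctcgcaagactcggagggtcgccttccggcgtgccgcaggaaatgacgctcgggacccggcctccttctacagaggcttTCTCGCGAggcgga
Rab30 (Ronin, chr7:99889963-99890112, plus strand): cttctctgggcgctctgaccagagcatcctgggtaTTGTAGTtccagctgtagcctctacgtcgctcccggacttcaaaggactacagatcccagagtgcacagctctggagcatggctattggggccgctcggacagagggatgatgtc
Ptp4a1 (TATA, chr1:31006616-31006765, minus strand): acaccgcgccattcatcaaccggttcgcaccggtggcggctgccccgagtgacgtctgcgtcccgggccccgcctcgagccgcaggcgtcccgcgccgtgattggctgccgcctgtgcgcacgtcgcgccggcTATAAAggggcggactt

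The sequence of Ggct came from the narrow promoter with the highest mean rank of all. Its NFY match, CCAATCA, began 150 bp upstream of the TSS, and the stretch held 4 copies of the shorter CCAAT core on either strand. Ggct encodes an enzyme of glutathione breakdown. Of the 9 stretches, 7 held at least 1 copy of the core, whichever motif they were chosen for. The GC box of Hmgb2, which encodes a DNA-bending chromatin protein, began 48 bp upstream of the TSS. The TATA box of Ptp4a1, a gene for a membrane-bound tyrosine phosphatase, began 17 bp upstream of the annotated TSS. The YY1 and Ronin matches of Cnot3 (a subunit of the mRNA deadenylase complex) and Rab30 (a Golgi GTPase) lay on the strand opposite to the gene.

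The lists differed in length, from 7577 to 66332 peaks, and they hold no read counts. The study's sample table lists the E12 libraries as those with the fewest reads. The 2 E12 lists were the shortest, with 13817 and 7577 peaks, against 22962 or more in each of the other 7 lists. Of the 3400 promoter regions under 2000 bp with a peak in 8 lists, 2883 (84.8%) lacked it in E12 replicate 2 and 470 (13.8%) in E12 replicate 1. Without E12 replicate 2, 7143 regions met the rule. The edge of the set was thus drawn almost wholly by the E12 lists, in which stage, read number and list length cannot be told apart. At the width limit, the regions at Phyhipl (1995 bp) and Nrip1 (1994 bp) were just inside, and those at Fnbp1l (2006 bp) and Fam76b (2016 bp) just outside. In all, 99 promoter regions with a peak in every list were 2000 bp or wider.

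Regions open in every sample were mostly promoters. Of the 4970 regions with a peak in all 9 lists, 4359 (87.7%) overlapped a promoter, against 15.6% of the other merged regions. The narrow promoters had a median width of 1168.5 bp (quartiles 989 and 1388 bp). Their summits, the points of highest signal, lay at a median of 34 bp upstream of the nearest TSS, and 2825 of 4260 (66.3%) were within 100 bp of it. The TSS itself was inside the region in 4219 cases (99.0%). The summit position was alike in every list, with medians per sample between 20 bp (E12 replicate 1) and 40 bp upstream (E16 Sox2-EGFP- replicate 1).

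These promoters also held the highest peaks of each list. They took 70.3% to 86.0% of the 1000 highest peaks of a sample, although they held only 6.69% of the autosomal peaks of the longest list and 61.3% of those of the shortest. The median narrow promoter stood at the 60.8th percentile of all autosomal peaks in E12 replicate 2 and at the 72.8th in E12 replicate 1. In the 7 later lists it stood between the 85.8th and the 95th. The rule required a peak in the shortest list, so a high place in the longer lists follows in part from the rule.

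CpG content, which the rule did not use, was high in the narrow promoters, as in other widely open promoters. A region was called CpG-rich where GC was at least 50% and the ratio of observed to expected CpG at least 0.6. By this measure 3751 of the 4260 (88.1%) were CpG-rich, against 18.1% of all merged regions, 75.6% of the 6791 promoter regions under 2000 bp with a peak in 6 to 8 lists, and 29.0% of the 2968 with a peak in 2 to 5. The share was 82.2% of the 3400 promoter regions under 2000 bp with a peak in 8 lists. It was 94.9% of the 99 promoter regions of 2000 bp or wider with a peak in all 9. Of the 605 distal regions under 2000 bp with a peak in all 9 lists, 42.1% were CpG-rich. The median CpG ratio was 0.763 (quartiles 0.676 and 0.847) in the narrow promoters, 0.55 in the distal regions open in every sample and 0.278 over all regions. Median GC was 62.7% against 51.4% over all regions. Regions are not replicates, so no test was made of these shares.

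**Figure D1:**
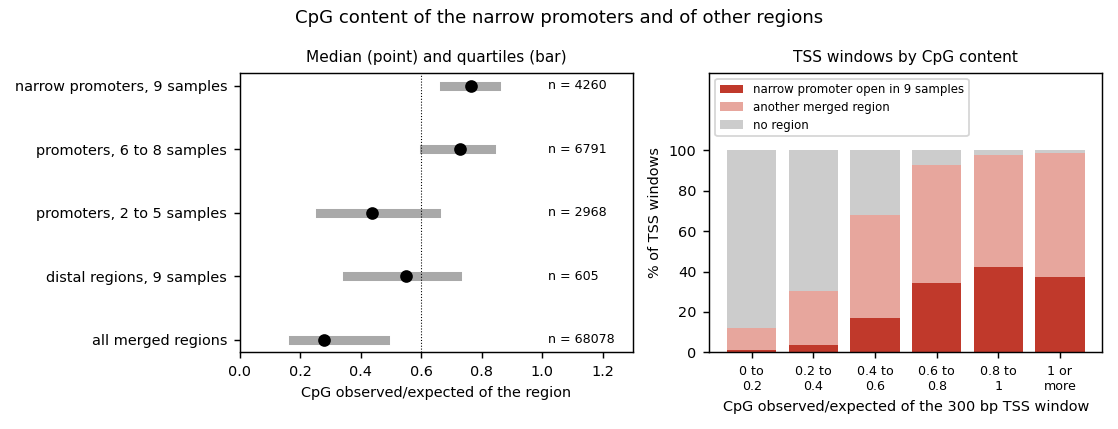
Left, CpG observed/expected of 5 classes of regions (point for the median, bar for the quartiles, dotted line at 0.6). Right, 43969 TSS windows of 300 bp by the CpG ratio of the window. Colours give the share whose promoter window overlapped a narrow promoter open in 9 samples, another region only, or none. The median falls from 0.763 in the narrow promoters to 0.278 over all regions, and windows without a region make up 87.7% of the lowest bin and 1.42% of the highest.

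Seen from the start sites, CpG content separated TSSs with any open region from those with none more sharply than it separated the 4260 promoters from other open promoters. Among 43969 distinct TSS positions, 9331 had a promoter window (1000 bp upstream to 100 bp downstream) that overlapped a narrow promoter open in every sample. Such TSSs are called TSSs in a narrow promoter here, although the start itself can lie outside the region. In windows of 300 bp (250 bp upstream to 50 bp downstream) 83.4% of these were CpG-rich, against 62.1% of TSSs with another region and 3.36% of TSSs with no region. The share of TSSs in a narrow promoter was 0.978% at CpG ratios below 0.2, 17.1% between 0.4 and 0.6 and 42.2% between 0.8 and 1, and it stood at 37.2% in windows of 1 or more. A minority of 242 narrow promoters (5.68%) were CpG-rich neither over the region nor over 300 bp at the summit.

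Head-to-head gene pairs were more frequent in the narrow promoters than in other promoter regions. A pair was counted where 2 genes on opposite strands started within 1000 bp of each other and pointed apart. Such pairs were served by 486 of the 4260 regions (11.4%) and by 5.32% of the other promoter regions. A region had to overlap both promoter windows, which is easier for a wide region. The median width was 1168.5 bp in the narrow promoters. It was 995 bp in promoter regions under 2000 bp with a peak in 6 to 8 lists and 587.5 bp with 2 to 5. The shares were not matched for width or CpG content. Most narrow promoters, 3669 (86.1%), touched the promoter window of a single gene.

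Shares were highest among classes of genes for the basic machinery of the cell. Beside the 22.4% of all genes, the share with a narrow promoter open in every sample was 48.7% (19 of 39) for genes of the DNA replication origin and fork, 47.2% (17 of 36) for aminoacyl-tRNA synthetases, which charge tRNAs, and 45.9% (34 of 74) for spliceosome and splicing factors. It was 43.9% (36 of 82) for chaperonins and heat shock proteins and 35.4% (17 of 48) for proteasome subunits. Of 21 gene classes, 11 stood above the share of all genes. Genes of RNA polymerase II and Mediator (10 of 41, 24.4%) and of the respiratory chain and ATP synthase (21 of 88, 23.9%) stood close to it.

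Cytosolic ribosomal proteins stood below the share of all genes, with 21 of 122 (17.2%). Another 54 of the 122 (44.3%) had their most widely shared promoter region in 6 to 8 lists. The annotation may count some intronless copies of these genes as protein-coding, and reads from near-identical copies may be split or dropped in mapping. The part of either in this share was not tested, so the share is uncertain. Replication-dependent histones, whose genes are also repeated, had 8 of 67 (11.9%) in the set and 40 (59.7%) in 6 to 8 lists.

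Most classes of genes used in few cell types were seldom in the set. None of the 1081 olfactory receptors, 357 taste and vomeronasal receptors, 46 keratins or 40 Hox genes had a narrow promoter open in every sample. Of the Hox genes, 12 had any promoter region. Cadherins and protocadherins had 3 of 57 (5.26%), cytokines and chemokines 5 of 70 (7.14%) and Sox genes 2 of 18 (11.1%). Without the width limit the share of Sox genes was 22.2%, near that of all genes, so their low share came with that limit. The shares of cadherins and cytokines were the same without it. Fox genes, with 8 of 40 in the set, also stood near the share of all genes. The C2H2 zinc finger genes with a Zfp symbol, a family that is often clustered on the chromosome, had 96 of 359 (26.7%).

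Of the marker lists, the prosensory list, which was the longest, had the most genes in the set. Of its 15 genes, 8 had a narrow promoter open in all 9 samples, beside 22.4% of all genes. Among them were Sox2, Gata3, Isl1, Jag1, Hey1 and Hey2. The rule required 6 Sox2-EGFP+ and 3 Sox2-EGFP- lists, and the E12 lists that drew its edge were all Sox2-EGFP+. The rule may thus favour genes open in these cells, and the count is a description. The prosensory regulator Eya1 had a peak in 8 lists. None of the 8 epithelial genes was in the set: Cdh1 (E-cadherin), Grhl2, Esrp1 and Cldn7 had a promoter peak in 6 of 6 Sox2-EGFP+ lists and in 0 of 3 Sox2-EGFP- lists. No promoter region was found at the 8 macrophage genes on the list or at the 4 erythroid genes. Of the mesenchymal, endothelial, neuronal and glial lists, the members were Elavl4, a neuronal RNA-binding protein, and Mbp, a myelin protein.

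The promoter of Sox2 was open in every sample but its peak was low. The region (chr3:34547449-34549324, mm9) was 1876 bp wide and ranked 4106 of 4260 by mean rank. Rank percentiles run here from 0 (lowest) to 100 (highest) among the 4970 regions open in every sample. Sox2 stood at 2.05 and 23.1 in the E12 samples, at 5.4 and 44.9 in the E14.5 Sox2-EGFP+ samples, and at 22.0 and 7.19 in the E16 Sox2-EGFP+ samples. In Sox2-EGFP- cells it stood at 11.3 at E14.5 and at 3.87 and 1.84 at E16. The cell types overlapped, and the E14.5 Sox2-EGFP+ replicates lay farther apart than the means of the cell types at E14.5 and E16 (19.9 and 5.67). The fitted difference was 12.59 ± 9.24 (SE) percentile points (limma adjusted p = 0.779).

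Other prosensory members were spread over the middle and lower ranks. Hey2, a target of Notch signalling, was the highest of them, with a percentile of 29.5 at the lowest, 63.6 at the median and 91.7 at the highest of the 9 samples. Isl1, a LIM homeodomain factor, ranged from 20.5 to 80.5 with a median of 40.5. Fgf20, a ligand for prosensory cells, shared its region with Efha2, and this region ranged from 11.6 to 67.4. Gata3 had the narrowest of these regions, 480 bp, and a median percentile of 12.9. The Gata3 region did not hold the nearest TSS, and its summit lay at -1069 bp from that TSS (upstream). Jag1, a Notch ligand, had a median of 18.2. None of the 8 passed the test between cell types or between E16 and E12. The other Sox gene in the set, Sox21, stood between 23.0 and 98.1 in Sox2-EGFP+ samples and at 2.85, 1.44 and 1.86 in Sox2-EGFP- samples. These groups did not overlap, but the difference of 47.23 ± 15.4 points did not pass (limma adjusted p = 0.287).

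**Figure D2:**
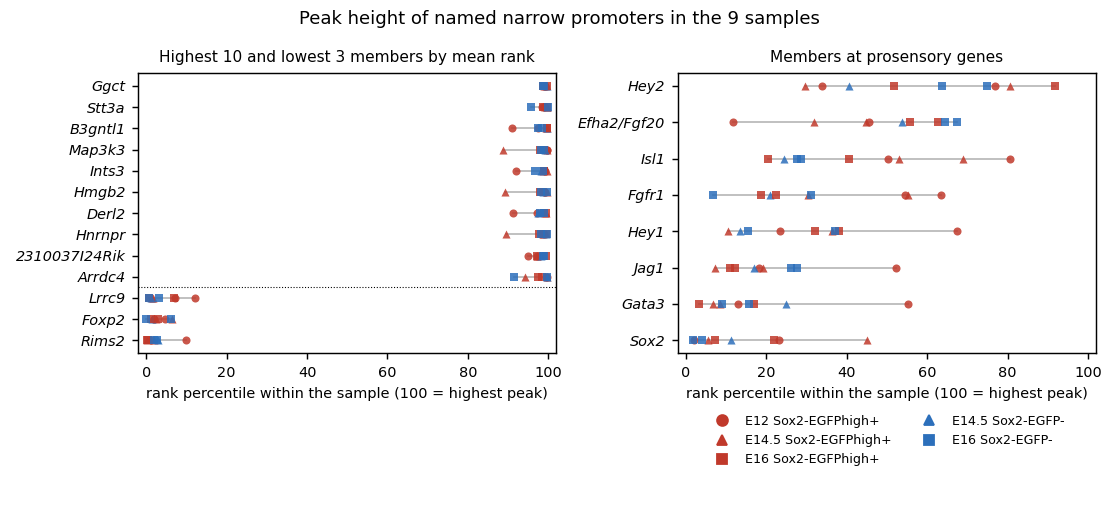
Rank percentile of the peak (100 = highest of 4970 regions) in each of the 9 samples for the 10 highest and 3 lowest narrow promoters by mean rank (left) and for those at prosensory genes (right); colours and symbols give cell type and stage, and grey lines the range. The highest 10 stay at 88.7 or more in every sample and the lowest 3 at 12.2 or less, while Sox2 lies between 1.84 and 44.9.

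At the top of the order, the first 10 promoters stood high in every sample. The peak of Ggct (chr6:54942411-54943310) stood between the 98.6th and the 99.7th percentile, with -log10 p from 22.4 in E12 replicate 2 to 135 in E14.5 Sox2-EGFP+ replicate 1. The next was Stt3a, the catalytic subunit of the enzyme that attaches sugars to new proteins, between 95.7 and 99.9. The other 8 of the first 10 were B3gntl1, Map3k3 (a signalling kinase), Ints3 (a subunit of the Integrator complex), Hmgb2, Derl2 (a factor of protein quality control in the endoplasmic reticulum), Hnrnpr (an RNA-binding protein), 2310037I24Rik and Arrdc4. The lowest percentile that any of the 10 reached was 88.7, for Map3k3. At the bottom were Lrrc9, Foxp2 (a forkhead factor) and Rims2 (a protein of the presynaptic release site), with medians of 1.7, 2.34 and 1.84.

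Between these ends the order was shared only in part. The median narrow promoter had an SD of 16.8 percentile points over the 9 samples. In all 9 samples, 725 (17.0%) stayed in the upper 50 percentiles and 539 (12.7%) in the lower 50. The Spearman rank correlation over the 4260 promoters was between 0.639 and 0.803 for the 6 pairs of later Sox2-EGFP+ samples, between 0.733 and 0.758 for the 3 pairs of Sox2-EGFP- samples, and between 0.599 and 0.756 for the 12 pairs of one of each. Pairs with an E12 sample had values between 0.398 and 0.571. These are descriptions across regions that share base composition and gene content within every sample.

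In gene classes, the ends of the order were as follows. Among splicing factors Hnrnpr was highest (order 8) and Hnrnpu lowest (order 3870). Among cytosolic ribosomal proteins Rpl37 was highest (order 61) and Rps10 lowest (order 3669). Gins2, of the replicative helicase, stood at order 129 and Rpa2, of the single-strand binding complex, at order 2370. The chaperone Hspa2 stood at order 49 and Cct5, a chaperonin subunit, at order 4059. The median of the mean percentile was 65.9 for replication genes and 66.4 for chaperones, against 51.6 over all genes with a narrow promoter, and 24.6 for the 8 Fox genes.

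Motifs were searched as exact letters on both strands in the 300 bp windows, and each is given beside its share in all 43969 TSS windows. The GC box (GGGCGGGG) was in 40.8% of the 9331 windows of narrow promoters and in 22.3% of all windows. The NFY motif (CCAATCA) was in 14.3% against 7.65%, and the ETS motif (CCGGAAGT) in 8.13% against 4.74%. Values for other motifs of broadly expressed factors were 6.18% against 4.14% for the E-box (TCACGTG), 5.07% against 2.86% for E2F (GGCGGGAA) and 4.96% against 3.55% for Ronin (ACTACAA). They were 3.8% against 2.24% for NRF1 (CGCATGCG), 3.75% against 2.14% for CRE (TGACGTCA), 3.44% against 1.93% for YY1 (AAGATGGCG) and 3.04% against 1.29% for TCTCGCGA, a CGCG promoter element called Kaiso-type here. A match is a description of letters and not a bound site. Matches of different motifs rarely shared bases: the highest overlap of any pair among the 19 motifs was 28 of 504 E2F matches (5.56%) with a GC box.

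The TATA box and the SOX, GATA, TEAD, AP-1 and GRHL motifs were less frequent in narrow promoters than in all windows. TATAAA was in 3.83% against 11.4%. The SOX motif (ACAATGG) was in 1.61% against 2.85%, and the motif of GATA factors, AGATAAG, in 1.15% against 2.6%. TEAD (TGGAATG) was in 2.19% against 3.63% and AP-1 (TGACTCA) in 2.19% against 4.24%. GRHL (AACCNGTT) was in 1.52% against 1.98%. CTCF (CTNGTGGC) and RFX (GTTGCCAT) differed little, with 4.39% against 4.54% and 1.19% against 1.05%. The same letters were also read backwards, which keeps the base counts but not always the CpG. They gave 38.8% for the GC box and 5.26% for E2F in narrow promoters, close to the shares of the motifs themselves. For NFY, ETS, NRF1 and YY1 they gave 1.38%, 0.825%, 0.311% and 0.0322%. The ETS letters hold a CpG only when read forwards, so for ETS the 2 readings are not matched for CpG. The ratio of narrow promoters to all windows was 1.7 for NRF1 and 2.68 for its reversed letters. Most of the less frequent motifs had low ratios in both readings. Forward and reversed, the ratios were 0.337 and 0.3 for TATAAA, 0.441 and 0.379 for GATA and 0.565 and 0.611 for SOX. They were 0.603 and 0.615 for TEAD, 0.515 and 0.616 for AP-1 and 0.769 and 0.958 for GRHL. The part of base composition and of CpG in these ratios was not tested.

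**Figure D3:**
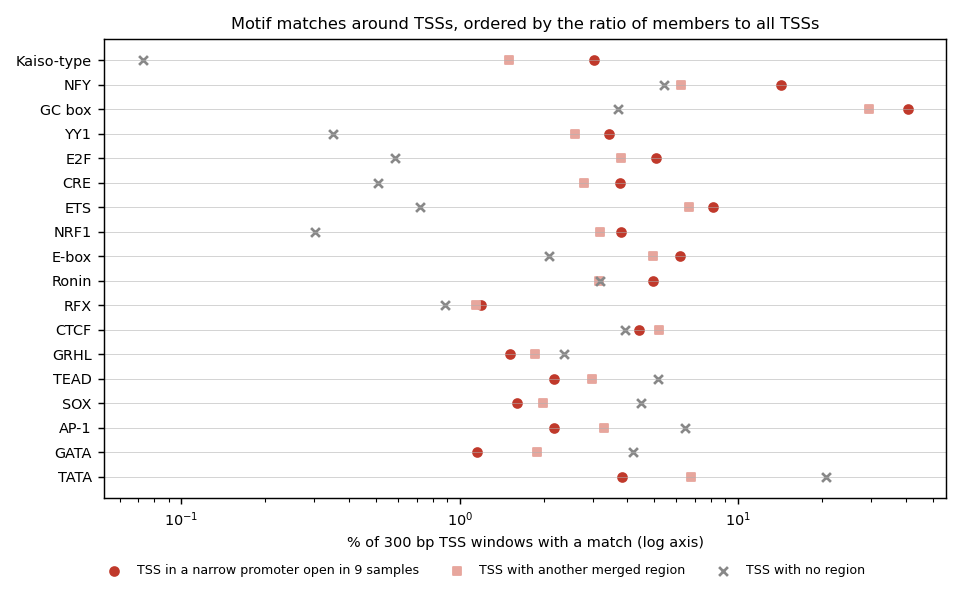
Share of 300 bp TSS windows with a match to each of 18 motifs, on a log axis, for TSSs in a narrow promoter open in 9 samples (9331), with another merged region (18115) and with no region (16523). The GC box is the most frequent in narrow promoters (40.8%), the TATA box in windows without a region (20.7%), and NFY stands at 14.3% in narrow promoters, 6.26% with another region and 5.44% with none.

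Over all TSS windows, NFY and Ronin differed from other motifs in where narrow promoters stood apart. ETS, NRF1, YY1 and CRE were far more frequent in any TSS window with a region than in windows without one, and narrow promoters were only somewhat above other open promoters: ETS was in 8.13%, 6.65% and 0.72% of the 3 kinds of windows. NFY was in 14.3%, 6.26% and 5.44%, so that other open promoters were near the windows without a region, and Ronin in 4.96%, 3.17% and 3.18%. The letters of ETS, NRF1, YY1 and CRE hold a CpG, and those of NFY and Ronin do not. In CpG-rich windows alone, ETS was in 8.92% of narrow promoters and 3.96% of windows without a region. The values were 4.24% and 3.06% for NRF1, 3.75% and 0.541% for YY1, and 4.12% and 2.52% for CRE. They were 14.6% and 5.77% for NFY and 4.8% and 1.44% for Ronin. The E-box had the opposite order there, with 6.72% and 7.03%. The CpG-rich windows numbered 7784 in narrow promoters and 555 without a region, so low shares in the latter rest on few windows. The part of CpG content in the contrast between motifs was not tested. Among promoter regions under 2000 bp, the share with an NFY match at the nearest TSS was 6.64%, 6.15% and 8.15% for those with a peak in 6, 7 and 8 lists, and 16% (682 of 4260) for those with a peak in 9. The step from 8 to 9 lists is the one set mostly by E12 replicate 2. ETS stood at 5.19%, 8.03%, 9.26% and 7.72% over the same steps. In 300 bp windows at the summit, NFY was in 16.9% of the narrow promoters, 15.2% of the 605 distal regions open in every sample, 6.92% of promoters with a peak in 6 to 8 lists and 4.71% of all regions.

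Within the narrow promoters, the NFY share went with peak height. In 10 groups of 426 promoters, from the highest to the lowest mean rank, it was 31.0%, 26.1%, 22.8%, 17.1%, 19.5%, 10.6%, 10.6%, 11%, 7.98% and 3.52%. The highest 25% of the promoters had 27.4% and the lowest 25% had 6.85%. The shorter CCAAT core, in 46.7% of all narrow promoters, was in 67.5% and 27.1%. The order held in each of the 9 samples taken alone, with 22.8% to 29.3% in the highest 25% and 6.48% to 10.5% in the lowest 25%. With fold enrichment, the height of the peak over its surroundings, in place of -log10 p, the ranges were 21.6% to 25.5% and 9.3% to 11.9%. The 107 promoters with 2 or more NFY matches had a median rank percentile of 72.2, the 575 with 1 match 65.6, and the 3578 with none 47.9. Among CpG-rich narrow promoters alone the shares were 28.2% and 6.08%. Peak height and list membership come from the same values, so these are descriptions.

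Of the other motifs, Ronin had the same order, with 6.95% of the highest and 2.72% of the lowest 25%. The GC box was in 40.8% and 45%, ETS in 7.61% and 5.54%, and YY1 in 3.0% and 2.82%. NRF1 was in 1.88% and 4.51% and CRE in 3.0% and 4.69%, which is the opposite order. By fold enrichment the order of NRF1 was not the same in every sample, with ratios of the highest to the lowest 25% from 0.622 to 1.35. The ratios by fold enrichment ran from 1.56 to 3.43 for Ronin, 1.03 to 3.41 for ETS and 0.557 to 1.05 for the GC box. By -log10 p in single samples, those of ETS ran from 0.916 to 2.48 and those of the GC box from 0.631 to 1.15. CpG content and width varied little with height: 90.6% of the highest and 83.8% of the lowest 25% were CpG-rich, the median CpG ratio was 0.765 in the highest and 0.752 in the lowest 25%, and the median width 1162 and 1198 bp. Head-to-head pairs made up 15.3% of the highest and 7.23% of the lowest 25%, and NFY shares without them were 26.9% and 6.36%. Their part in the order of heights was not tested further.

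The motifs also had preferred positions. NFY matches were most frequent in the 20 bp bin that began 80 bp upstream of the TSS (2.39% of windows), against a mean of 0.392% between 500 and 300 bp upstream. The GC box was most frequent from 60 bp upstream (7.83%, against 1.28% farther upstream), ETS in the first 20 bp downstream (1.25%, against 0.119%) and YY1 in the same bin (1.1%, against 0.0772%). NFY matches lay on the gene's strand in 369 cases and on the other strand in 439, with median starts 96 and 69 bp upstream. SOX, GATA, TEAD, GRHL and AP-1 had their highest bins at start positions from -460 to -380 bp, with 0.225% to 0.407% of windows.

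**Figure D4:**
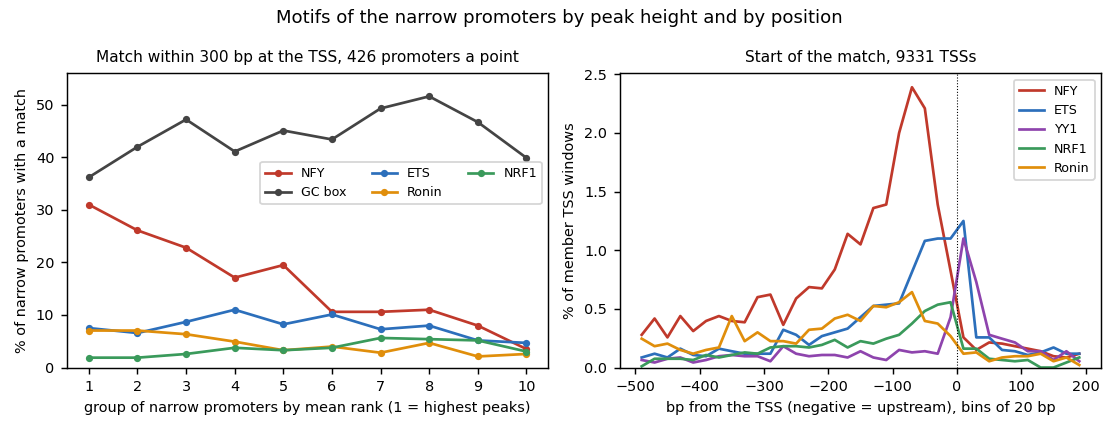
Left, share of narrow promoters with a match within 300 bp at the TSS in 10 groups by peak height (426 promoters a point); right, share of the 9331 TSS windows with a match that starts in each 20 bp bin. NFY falls from 31.0% to 3.52% from the highest to the lowest group while the GC box stays between 36.2% and 51.6%, and NFY starts peak from 80 bp upstream.

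NFY matches were spread unevenly over gene classes. Over all genes with a narrow promoter, 16.8% had one. The share was 42.1% (8 of 19) for replication genes, 33.3% (12 of 36) for chaperones and 28.1% (27 of 96) for Zfp genes, against 4.76% (1 of 21) for ribosomal proteins and 5.88% (1 of 17) for proteasome subunits. Of the 8 histone genes in the set, 5 (62.5%) had a match. These classes are small, and no test was made.

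The comparison of Sox2-EGFP+ with Sox2-EGFP- cells asks whether promoters open in all samples still differ in peak height between cell types. Rank percentiles were fitted with limma over the 4970 regions open in every sample, with stage as a covariate and Benjamini-Hochberg adjustment. At an adjusted p under 0.05, 10 of the 4260 narrow promoters were higher in Sox2-EGFP+ cells (0.235%), against 0.262% of all regions fitted, and 0 were lower, against 0.0% of all regions. The first share was near the background. At an unadjusted p under 0.05, 195 of the 4260 were higher and 124 lower. Among all 4970 regions fitted, 279 were higher and 144 lower. The median absolute difference was 8.43 percentile points, and the median SE of the fitted difference was 12.5.

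Efcab1, which encodes an EF-hand protein of motile cilia, had the largest difference of the 10. Its promoter (chr16:14906405-14907163) stood at 95.5 and 73.2 in the E12 samples, 94.3 and 98.2 in the E14.5 Sox2-EGFP+ samples and 97.8 and 98.3 in the E16 Sox2-EGFP+ samples. It stood at 8.35 in the E14.5 Sox2-EGFP- sample and at 3.79 and 4.91 in the E16 ones. All 6 Sox2-EGFP+ samples were above all 3 Sox2-EGFP- samples. The difference was 91.38 ± 11.9 points (SE, limma adjusted p = 0.003). Its CpG ratio was 0.319, and it was 1 of 5 of the 10 called promoters that were not CpG-rich, against 11.9% of the narrow promoters.

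Isl2, a LIM homeodomain factor of neurons, had a difference of 77.37 ± 13.2 points (adjusted p = 0.0315). Its promoter stood between 64.2 and 91.0, with a median of 85.1, in Sox2-EGFP+ samples, and at 7.01, 2.95 and 0.573 in Sox2-EGFP- samples. Lsr, a receptor found at the corners where epithelial cells meet, stood between 36.1 and 82.2 in Sox2-EGFP+ samples and at 0.755, 6.65 and 19.1 in Sox2-EGFP- samples (70.1 ± 13.4 points, adjusted p = 0.0446). Groups did not overlap at either gene. Ranked by fold enrichment, the differences were smaller and not called, at 32.95 points (adjusted p = 0.431) for Isl2, 27.24 (0.648) for Lsr and 38.53 (0.453) for Svip. Enpp5, a membrane protein of the nucleotide pyrophosphatase family, stood between 39.9 and 98.3 in Sox2-EGFP+ samples and at 6.58, 6.45 and 1.74 in Sox2-EGFP- samples. The smallest of the 10 differences was at Chchd8, a factor for cytochrome oxidase assembly, which stood between 69.8 and 99.6 against 59.9, 24.8 and 24.9. Shisa7, Svip, Sema4f (a semaphorin) and Snx17 (a sorting nexin, in a region shared with Eif2b4) were also called. With Enpp5 and Chchd8, their differences ran from 54.95 to 79.95 points, with a limma adjusted p of 0.0446 for each of them except Shisa7 with 0.0315.

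In the other direction no narrow promoter passed. The 5 with the smallest p were Clk3 (a kinase of splicing factors, -36.23 points, adjusted p = 0.073), Sgcd (-35.85, 0.094), Ephb3 (an Eph receptor, -33.69, 0.106), Fbxw7 (a ubiquitin ligase subunit, -61.7, 0.106) and Pde4dip (-45.75, 0.128). Sgcd, a subunit of the sarcoglycan complex of muscle, stood between 0.835 and 8.95 in Sox2-EGFP+ samples and at 63.9, 26.2 and 27.0 in Sox2-EGFP- samples. Without the E14.5 Sox2-EGFP- sample its difference was -22.82 points. By fold enrichment the differences were -17.02 points for Clk3, -18.18 for Ephb3 and -28.26 for Fbxw7, and without stage as a covariate -25.84 for Pde4dip.

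The markers of cell types moved between the same samples. Of the 8 epithelial genes, 7 had no promoter peak in the 3 Sox2-EGFP- lists and a peak in 2 to 6 Sox2-EGFP+ lists, while Epcam had a peak in 8 lists. Of the 7 mesenchymal genes with a region, Prrx1 had a peak in 0 Sox2-EGFP+ and 3 Sox2-EGFP- lists, and the others had one in 2 to 6 and in 2 or 3. Of the 6 neuronal genes with a region, Neurod1 and Neurog1 had a peak in 3 Sox2-EGFP+ and 0 Sox2-EGFP- lists, and the others in 4 to 6 and in 2 or 3. The glial gene Sox10 had a peak in 4 and 0 lists, and the 4 other glial genes with a region in 4 to 6 and in 3. Of the 5 endothelial genes with a region, Emcn had a peak in 0 and 3 lists, and the others in 2 to 5 and in 2 or 3. Their part in the differences was not tested. A lower share of cells with an open promoter and a lower signal per cell cannot be told apart in bulk samples.

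The calls rested on few samples. Efcab1 kept its call in 16 of 20 alternative fits, and its difference was 90.95 points (adjusted p = 0.0724) without E16 Sox2-EGFP+ replicate 1 and 90.66 (0.065) without replicate 2. The other 9 called kept theirs in 6 to 8 of 19 or 20, while their differences stayed between 49.61 and 84.45 points in every fit of rank percentiles by -log10 p. With a replicate block Efcab1 kept its call (90.7 points, adjusted p = 0.00652) and the other 9 did not (54.86 to 77.77 points, adjusted p from 0.0587 to 0.0671). The number of narrow promoters higher in Sox2-EGFP+ cells was 0 without either of these (154 and 137 at an unadjusted p under 0.05), 1 or 2 without any other E14.5 or E16 sample, and 17 or 19 without E12 replicate 1 or 2. Sequencing batch 1 held E16 Sox2-EGFP+ replicate 1 and E16 Sox2-EGFP- replicate 1. With batch as a term 1 promoter was called higher, and with the 7 samples of batch 2 alone 0 were (116 unadjusted).

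**Figure D5:**
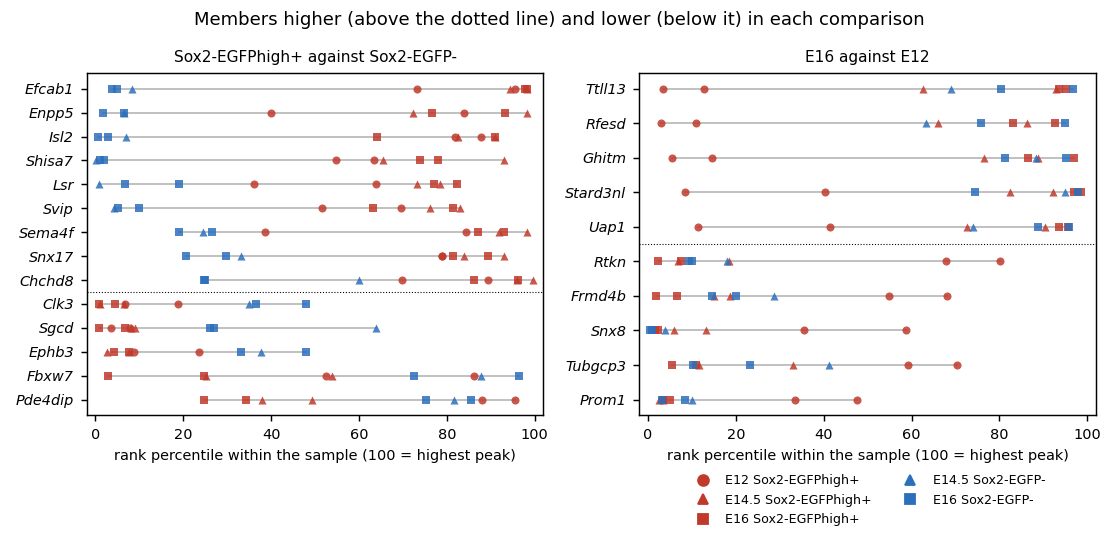
Rank percentile in each of the 9 samples for narrow promoters named in the comparison of cell types (left) and of E16 with E12 (right); those above the dotted line had fitted differences above 0 and those below it under 0, for Sox2-EGFP+ minus Sox2-EGFP- or E16 minus E12. At Efcab1 the 6 Sox2-EGFP+ samples lie at 73.2 or more and the 3 Sox2-EGFP- samples at 8.35 or less; Clk3, Sgcd, Ephb3, Fbxw7, Pde4dip, Tubgcp3 and Prom1 did not pass the test.

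For E16 against E12 the same fit called 9 narrow promoters higher (0.211%, against 0.181% of all regions fitted) and 3 lower (0.0704%, against 0.221%). Of the 9, the 5 with the largest differences are described. At an unadjusted p under 0.05, 343 of the 4260 were higher and 281 lower. Among all 4970 regions fitted, 369 were higher and 408 lower. Ttll13, a tubulin polyglutamylase, stood at 12.7 and 3.34 at E12, at 62.5 to 92.9 in the 3 samples of E14.5 and at 95.1, 93.5, 80.4 and 96.8 at E16 (86.91 ± 14.4 points, limma adjusted p = 0.0287). Both E12 samples were below the other 7. Rfesd, Ghitm (a protein of the inner mitochondrial membrane), Stard3nl and Uap1 (an enzyme that makes UDP-GlcNAc) had differences of 69.16 to 82.89 points with the same adjusted p.

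Rtkn had the largest decrease of the 3 called. It stood at 80.1 and 67.8 at E12 and between 2.34 and 10.1 at E16 (-69.15 ± 11 points, adjusted p = 0.0287). Frmd4b (-57.04) and Snx8 (-44.32) were also called lower, with adjusted p of 0.0455 and 0.0463. With a replicate block these were not called (-56.41, adjusted p = 0.065, and -43.96, adjusted p = 0.0741). With -log10 q of at least 5 in every list, the difference was -34.94 for Frmd4b and -38.0 for Tubgcp3. Tubgcp3 (-58.55) and Prom1 (-37.44) were not called lower, with 0.061 each. The Snx8 region did not hold the nearest TSS, and its summit lay at -1083 bp from that TSS (upstream). E12 has only Sox2-EGFP+ samples and the 2 shortest lists, so stage, read number and list length cannot be told apart. Without E12 replicate 1 the counts were 107 higher and 88 lower, and without E12 replicate 2 they were 67 and 53. They were 3 and 1 without E14.5 Sox2-EGFP+ replicate 2, and 0 and 0 without any other sample, with batch as a term, in batch 2 alone and in Sox2-EGFP+ samples alone (192 to 324 higher and 151 to 263 lower at an unadjusted p under 0.05).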

How the data were processed

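The data were 9 lists of ATAC-seq peaks, 1 per sample. Per the study's methods, the authors used Trim Galore for trimming, Bowtie2 for alignment to mm9 and Picard with SAMtools for discarding duplicate and mitochondrial reads, ran MACS2 on every sample, and kept peaks that overlapped one of another sample of the same type. The deposited columns hold a score, the fold enrichment, -log10 p, -log10 q-values and the summit offset. Column 8, -log10 p, set the ranks. The lists hold no reads, so the study's read-count test could not be made, and precision cannot be given per value. The study's read numbers per sample were not used here.

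Merging, overlaps, CpG and motif counts were made in Python 3.11.15 and tested on simulated data (merging and overlaps against bedtools 2.31.1). TSSs came from GENCODE vM1 (protein-coding) and sequence from NCBIM37, the assembly of mm9. A region's value in a sample is that of its highest peak. No blacklist was applied. A few genes and a motif are not reported here. Rank percentiles were fitted with limma 3.58.1 in R 4.3.3 (eBayes with trend, stage and cell type as terms), with Benjamini-Hochberg adjustment over 4970 regions. The E14.5 Sox2-EGFP- group has 1 sample and is assumed to vary like the others. The study describes 1 litter per Sox2-EGFP+ replicate, gives no litters for Sox2-EGFP- cells, and has E16 Sox2-EGFP- cells collected in parallel, so E16 samples with the same number may share a litter. Their deviations from the group means correlated at 0.256, and same-numbered E16 samples also share the sequencing batch. Sequencing batches are those of the study's sample list.

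The narrow promoters, gene classes, markers and motifs were chosen with earlier results of these data known. Named were the 10 highest and 3 lowest by mean rank, the called with the largest differences (up to 10 between cell types and 5 between stages, or the 5 smallest p where fewer than 5 were called), members on marker lists, those at the width limit, and the ends of gene classes. Alternatives covered the finding of regions, the CpG thresholds, the value and design of the fit, motif windows and leaving out each sample.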

Additional observations from a re-analysis of the deposited data

Results flagged for a closer look

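Chromosome X was left out of the narrow promoters by the rule. It held 83 regions that met every other part of it, a signal in data outside the comparisons, which is 8.91 per 100 protein-coding genes of the chromosome. No such region was found on chromosome Y.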

How the results depend on the processing

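The number of narrow promoters stayed within 1.5 times of 4260 except with peaks of -log10 q of at least 5 (2056), with the 5000 highest peaks of each list (1255) and, among fits without 1 sample (4262 to 7143), without E12 replicate 2. The stricter presence rule left 4260, since every peak meets it. The CpG-rich share was 90.2% over 300 bp at the summit, 53.1% with a CpG ratio of at least 0.75 and GC of at least 55%, and 86.0% to 89.6% without 1 sample.

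For the cell types (10 higher, 0 lower), counts were 4 and 0 by fold enrichment, 45 and 2 with quantile-normalized log2 values, 16 and 0 with ranks among narrow promoters only, 23 and 1 without trend, 1 and 0 with a batch term, 0 and 0 in batch 2, 1 and 0 with -log10 q of at least 5, 23 and 1 without a stage term, 17 and 1 with E14.5 and E16 only, 0 and 0 at E16 only, and 0 to 19 and 0 to 2 without 1 sample. For E16 against E12 (9 and 3), they were 16 and 11, 13 and 1, 8 and 8, and 3 and 1 in the first 4 of these, 0 and 0 with a batch term, in batch 2 and in Sox2-EGFP+ samples, 3 and 2 with -log10 q of at least 5, and 0 to 107 and 0 to 88 without 1 sample. Where a count was 0, 116 to 162 (cell types, higher) and 192 to 324 with 151 to 263 (stages) had an unadjusted p under 0.05. The causes were not tested. No named promoter changed direction in any fit. With the replicate block, counts were 1 and 0 for the cell types and 7 and 1 for the stages.

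Of 19 motifs, 11 were more frequent in narrow promoters than in all windows, 10 with 100 bp upstream and 5 with reversed letters. The ratio of NFY shares in the highest and lowest 25%, 4.0, was tried under alternatives chosen after seeing the data. It was 2.64 by fold enrichment, 2.49 for CCAAT alone, 1.36 for reversed letters, and 3.75 to 4.63 in the others. The E12 libraries had the fewest reads and the shortest lists.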
